A study of Oryza sativa with 36 samples.

Results

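The 10 rice loci described here encode proteins of DNA replication, and they were picked by identifier out of 55801 loci in the deposited count table. They are the 6 genes of the MCM2-7 helicase, which are MCM2 (LOC_Os11g29380), MCM3 (LOC_Os05g39850), MCM4 (LOC_Os01g36390), MCM5 (LOC_Os02g55410), MCM6 (LOC_Os05g14590) and MCM7 (LOC_Os12g37400). PCNA (LOC_Os02g56130) is the gene of the sliding clamp, and LOC_Os06g14620, LOC_Os06g07210 and LOC_Os02g56100 are 3 loci of ribonucleotide reductase (RNR). The count table pairs no identifier with a name, so the names come with the list that chose the loci. A RefSeq gene table of rice (assembly ASM3414082v1), which matched 0 of the 55801 identifiers, placed 7 of the 7 MCM and PCNA names on the chromosome that the identifier gives. The subunit that each RNR locus encodes is not given in the sources used here.

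Before S phase, the MCM2-7 hexamer is loaded onto DNA at replication origins, and once activated it unwinds the duplex ahead of the fork. PCNA encircles the new duplex and holds the replicative polymerases to it, while ribonucleotide reductase supplies the deoxyribonucleotides. Transcripts of these genes are known to be abundant in cycling plant cells, meristems among them, and scarce in cells that have left the cycle.

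RNA was measured in 35 CEL-Seq2 libraries, 18 of NIL-MP3, by its name a near-isogenic line, and 17 of Takanari, a high-yielding indica cultivar. Each line was sampled under the tissue labels AM1, AM2, AM3, AM4, AM5 and SAM, with 3 libraries in every group except Takanari SAM, which had 2 because 1 library was left out by the submitters. The labels call the tissue of all groups axillary meristems, do not spell out AM or SAM, and give neither the age of the plants nor the segment that sets the NIL apart. Every plant grew in the same short-day regime, and it is not stated whether each library came from its own plant. The p-values therefore measure only how far these libraries spread, and that spread may be technical. Markers of meristem identity could not be checked, because identifiers were not paired with names.

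Total counts per library ran from 77362 to 224706 with a median of 143050, and each count stands for 1 molecular identifier (UMI), so PCR copies do not add to it. The 10 replication genes together gave 3237 counts, between 14 and 206 per library, so single values rest on few molecules, and a library with 0 counts of a gene is compatible with up to 3. Levels are given as CPM, counts divided by the library's counts over the 6943 tested loci, in the usual CPM unit after TMM scaling. Of the 10 genes 9 passed the filter on low counts. LOC_Os02g56100 did not, with 81 counts in all and none in 11 libraries.

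Transcripts of the replication genes fell along the AM series. Summed over the 10 genes, the AM1 libraries averaged 1153 ± 326 CPM and the AM2 libraries 1065 ± 379 CPM. The sum was 636 ± 286 CPM for AM3, 414 ± 122 CPM for AM4 and 353 ± 160 CPM for AM5 (SD, n = 6 libraries each), with 896 ± 112 CPM for SAM (n = 5). The lowest, median and highest sums were 171, 336 and 599 CPM in AM5, against 703, 1176 and 1543 CPM in AM1, so the libraries of these groups did not overlap. AM4, at 244 to 541 CPM, also lay below every AM1 library, whereas AM3 reached from 324 to 1021 CPM and overlapped both ends. From high to low the order of the means was AM1, AM2, SAM, AM3, AM4 and AM5, and the ranges of each pair of neighbours overlapped. In libraries of whole tissue, fewer cells of a type and less RNA per cell cannot be told apart.

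**Figure D1:**
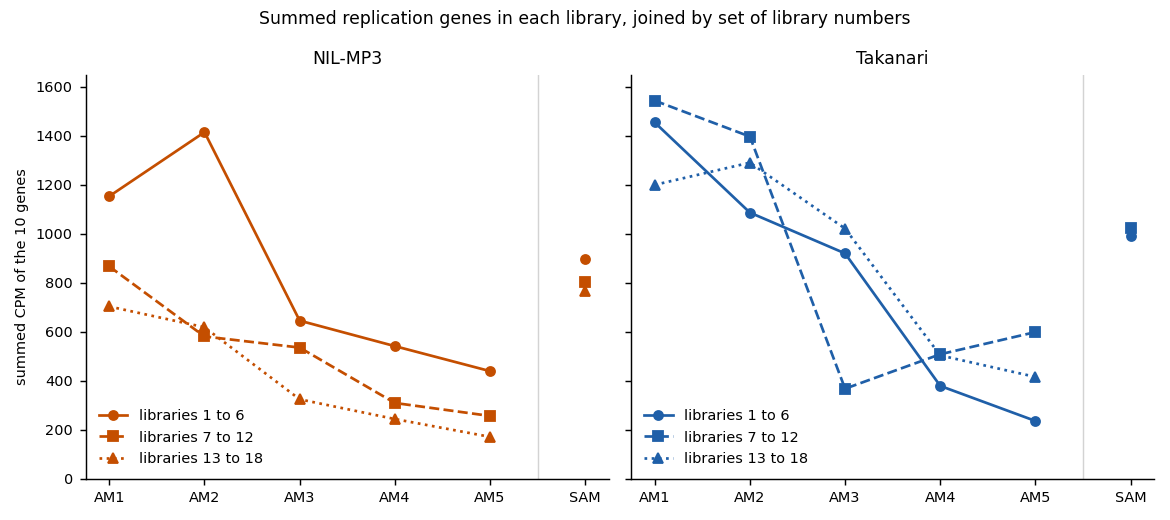
Summed CPM of the 10 replication genes (y axis) in each library by tissue label (x axis), NIL-MP3 on the left and Takanari on the right. Symbols and lines mark sets of 6 consecutive library numbers, which the labels do not explain. In each set AM5 lies below AM1, and SAM, drawn apart, lies between 768 and 1023 CPM.

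Tested one by one, 9 of the 9 tested genes fell over AM1 to AM5, where 9.81% of all tested loci fell. Their slopes had a median of -0.53 on the log2 scale per AM number (range -0.71 to -0.40), while the median slope over all 6943 loci was 2.88e-05. A joint test that assumes no line also passed for 9 of 9 genes, against 14.8% of loci in either direction between the 6 tissues. The 6 helicase genes and LOC_Os06g07210 had at most 9 counts in any AM4 or AM5 library. They thus passed the filter (minimum count 10) through libraries of the other tissues, where they were higher. The shares of all tested loci, here and below, include abundant loci and are not a like background for such genes. Mean total counts were lowest for AM5, 110750 ± 29303, against 130341 ± 23687 for AM1 (SD, n = 6 each). With every library thinned to the lowest total, 5 genes were still tested and 5 of those fell.

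The 6 helicase genes made up the first group. Summed over MCM2 to MCM7, levels were 138 ± 100 CPM in AM5 and 529 ± 145 CPM in AM1 (SD, n = 6 each), with 389 ± 55.9 CPM in SAM (n = 5). By cultivar, the AM5 sum was 135 ± 136 CPM for NIL-MP3 and 141 ± 81.9 CPM for Takanari, and the AM1 sum was 432 ± 118 CPM for NIL-MP3 and 626 ± 102 CPM for Takanari (SD, n = 3 each).

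MCM5, a subunit at the gate through which the ring opens onto DNA, separated the ends of the series in both cultivars. In AM5 it had 62.8, 32.1 and 0 CPM in NIL-MP3 libraries and 33.7, 33.3 and 0 CPM in Takanari libraries. In AM1 it had 65.9, 85.1 and 103 CPM in NIL-MP3 libraries and 141, 119 and 121 CPM in Takanari libraries. Every AM5 library thus lay below every AM1 library, narrowly in NIL-MP3 and by a wide margin in Takanari. The slope was -0.66 ± 0.12 per AM number (SE, edgeR's quasi-likelihood test with Benjamini-Hochberg adjustment, adjusted p = 2.78e-06), a fitted 6.26-fold decrease over the 4 steps. Its mean was 106 ± 27.1 CPM in AM1, 110 ± 39.8 CPM in AM2, 60.0 ± 37.0 CPM in AM3, 21.1 ± 15.8 CPM in AM4 and 27.0 ± 23.9 CPM in AM5 (SD, n = 6 each), so AM1 and AM2 differed by less than their spread, as did AM4 and AM5.

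MCM6, which sits between MCM2 and MCM4 in the ring, had the steepest slope of the list. Its AM5 values were 15.7, 10.7 and 0 CPM in NIL-MP3 libraries and 16.9, 11.1 and 9.45 CPM in Takanari libraries, each from at most 1 count. In AM1 they were 57.7, 23.2 and 31.0 CPM in NIL-MP3 libraries and 141, 108 and 113 CPM in Takanari libraries. The groups did not overlap in either cultivar, and the 2 cultivars were apart in AM1, with Takanari higher, and mixed in AM5. Its slope was -0.71 ± 0.17 (SE, adjusted p = 0.000179), a fitted 7.07-fold decrease.

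MCM2, the partner of MCM5 at the gate, behaved less evenly. In AM5 it had 78.5, 10.7 and 0 CPM in NIL-MP3 libraries and 0, 55.4 and 37.8 CPM in Takanari libraries. In AM1 it had 98.9, 77.4 and 41.4 CPM in NIL-MP3 libraries and 86.8, 129.5 and 90.5 CPM in Takanari libraries. Takanari libraries separated, but in NIL-MP3 the AM5 library numbered 1 lay above 2 AM1 libraries. The lowest mean was that of AM4, 19.0 ± 21.9 CPM, against 60.3 ± 40.1 CPM in AM3 (SD, n = 6 each). Its slope was -0.54 ± 0.12 (SE, adjusted p = 0.000228).

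MCM4 and MCM7 form the catalytic core of the helicase with MCM6, and MCM3 closes the ring between MCM5 and MCM7. For these 3 remaining subunits the libraries at the ends of the series overlapped. MCM3 averaged 18.6 ± 21.5 CPM in AM5 and 78.3 ± 41.5 CPM in AM1, MCM4 averaged 23.0 ± 17.2 CPM in AM5 and 86.9 ± 63.3 CPM in AM1, and MCM7 averaged 28.2 ± 26.6 CPM in AM5 and 91.5 ± 45.9 CPM in AM1 (SD, n = 6 each). Their slopes were -0.53 ± 0.14 (adjusted p = 0.00112), -0.52 ± 0.14 (adjusted p = 0.0015) and -0.42 ± 0.12 (SE, adjusted p = 0.00388). For MCM4 the AM1 mean leaned on NIL-MP3 library 5 at 181 CPM and Takanari library 11 at 151 CPM, while the other 4 AM1 libraries had 31.0 to 67.9 CPM. MCM7 in Takanari ran against the rest in 1 pair of libraries, with 75.6 CPM in AM5 library 13 and 37.7 CPM in AM1 library 17.

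PCNA, with 942 counts, was the best measured of the 10 genes and the only one with a count in each of the 35 libraries. In AM5 it had 126, 74.8 and 101 CPM in NIL-MP3 libraries and 101, 55.4 and 198 CPM in Takanari libraries. In AM1 it had 362, 217 and 196 CPM in NIL-MP3 libraries and 358, 432 and 362 CPM in Takanari libraries. Within each cultivar the AM5 libraries lay below the AM1 libraries. Over both cultivars the lowest, median and highest values were 196, 360 and 432 CPM in AM1, 102, 335 and 529 CPM in AM2, 72.8, 157 and 262 CPM in AM3, 91.2, 156 and 217 CPM in AM4, and 55.4, 101 and 198 CPM in AM5. The medians of AM3 and AM4 were thus close, and the NIL-MP3 AM2 libraries spread most widely, with 529 CPM in library 4, 169 CPM in library 10 and 102 CPM in library 16. Its slope of -0.40 ± 0.077 (SE, adjusted p = 0.000127) was the shallowest of the 9 and had the smallest error, a fitted 3.07-fold decrease over the 4 steps.

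Both tested RNR loci fell as well. LOC_Os06g14620 had 0, 42.7 and 46.7 CPM in NIL-MP3 AM5 and 50.6, 288 and 47.2 CPM in Takanari AM5. In AM1 it had 148, 217 and 72.4 CPM in NIL-MP3 libraries and 358, 313 and 219 CPM in Takanari libraries. Of the 6 AM5 libraries 5 lay below every AM1 library, and Takanari AM5 library 7, with 26 counts, did not. The slope was -0.44 ± 0.096 (SE, adjusted p = 0.000444), and without that library it was -0.58 (adjusted p = 9.74e-07). LOC_Os06g07210 averaged 55.3 ± 13.5 CPM in AM1, 12.5 ± 8.15 CPM in AM4 and 21.0 ± 10.8 CPM in AM5 (SD, n = 6 each), with a slope of -0.53 ± 0.14 (SE, adjusted p = 0.00145).

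LOC_Os02g56100, the RNR locus left out by the filter, was listed with 3 counts in the 6 AM5 libraries together and 18 counts in the 6 AM1 libraries. No count was found in 4 of the 6 AM5 libraries, and the 5 SAM libraries held 26 counts. In a fit of all loci with a count its slope was -0.63 ± 0.19 (SE, adjusted p = 0.026). It lies on chromosome 2, with 2 rows of the count table between it and PCNA, and MCM5 lies on the same chromosome.

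**Figure D2:**
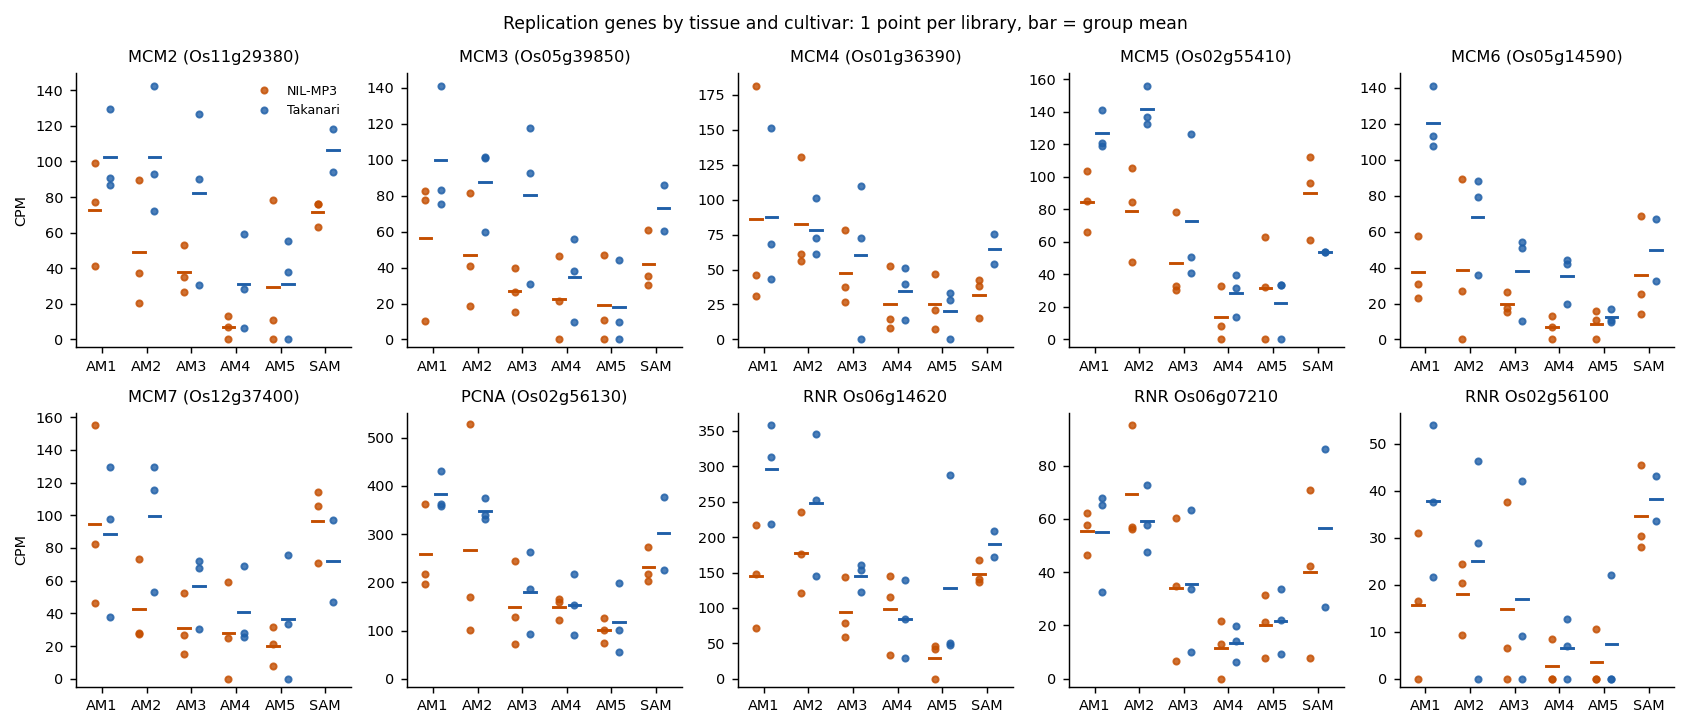
CPM of each replication gene (y axis, linear, 1 scale per panel) in each library by tissue label (x axis), with NIL-MP3 left of Takanari. Points are libraries and bars are group means of 3 libraries (2 for Takanari SAM). PCNA lies between 55.4 and 198 CPM in AM5 and between 196 and 432 CPM in AM1, and MCM6 reaches at most 16.9 CPM in AM5.

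The ends of the series were also compared directly. AM5 was lower than AM1 for 8 of 9 genes, where 6.78% of loci were lower. The differences ran from -2.74 for MCM6 to -1.50 for LOC_Os06g07210, the gene that did not pass (adjusted p = 0.0753), with a median of -1.65 on the log2 scale. That of MCM5 was -2.14 ± 0.54 (SE, adjusted p = 0.00123) and that of PCNA was -1.51 ± 0.35 (adjusted p = 0.0022). Without NIL-MP3 AM5 library 13, in which MCM2, MCM3, MCM5, MCM6 and LOC_Os02g56100 had no count, 5 genes passed.

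Counted without a test, AM5 and AM1 libraries of both cultivars did not overlap for 2 of 9 genes, MCM5 and MCM6, against 2.15% of loci. Within NIL-MP3 this held for 6 of 9 genes, against 8.05% of loci, and MCM2, MCM3 and MCM4 were the exceptions. Within Takanari it held for 6 of 9 genes, against 11.2% of loci, and MCM7 and both RNR loci were the exceptions.

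None of the 9 genes passed in a single step of the series in edgeR's test with the filter and no block. AM2 minus AM1 gave 0 of 9 genes (0.259% of loci), AM3 minus AM2 gave 0 of 9 (0.0432% of loci), AM4 minus AM3 gave 0 of 9 (0% of loci) and AM5 minus AM4 gave 0 of 9 (0.36% of loci). The size of the steps was not compared by a test. The median over the 9 genes was -0.12 for AM2 minus AM1, -0.85 for AM3 minus AM2, -0.72 for AM4 minus AM3 and -0.42 for AM5 minus AM4 on the log2 scale. DESeq2 and limma voom also gave 0 genes in each step, while edgeR with no filter gave 1 for AM3 minus AM2. With a block for the sets of library numbers within each cultivar, edgeR gave 1 for AM3 minus AM2 and 1 for AM4 minus AM3. In edgeR's test with the filter 0, 3, 3 and 0 genes had an unadjusted p under 0.05 in the same order, against 7.56%, 9.75%, 6.39% and 9.17% of loci. The 3 of AM3 minus AM2 were PCNA (-0.90 ± 0.31), LOC_Os06g14620 (-0.85 ± 0.35) and MCM5 (-0.85 ± 0.38). Those of AM4 minus AM3 were MCM2 (-1.88 ± 0.63), MCM5 (-1.48 ± 0.52) and LOC_Os06g07210 (-1.42 ± 0.65, SE). MCM5 stood in both sets, and PCNA had -0.12 ± 0.33 in the later step. Whether genes differ from each other in the step at which they drop was not tested.

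**Figure D3:**
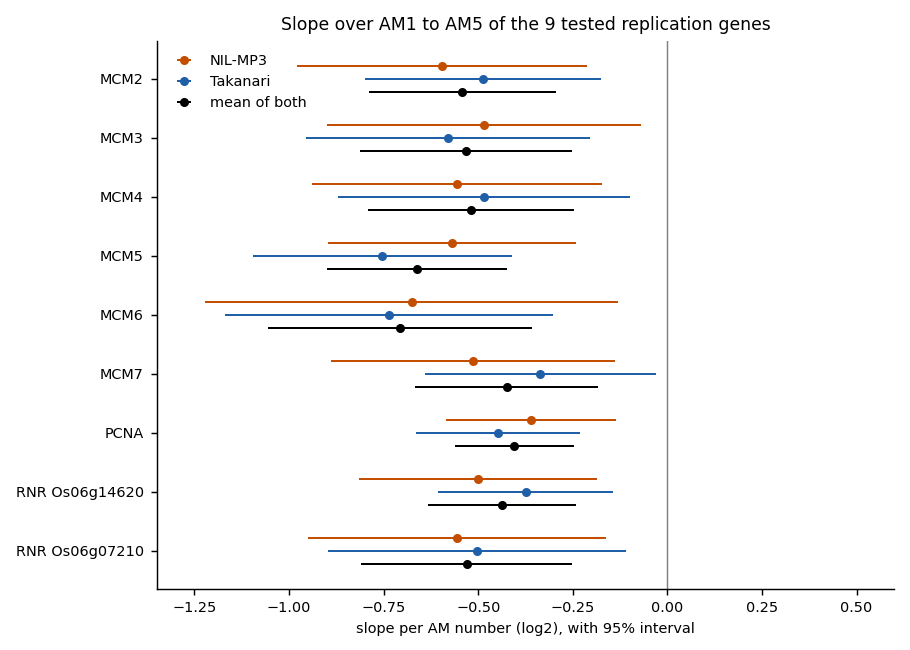
Fitted slope over AM1 to AM5 (x axis, log2 per AM number, with 95% interval) of the 9 tested genes (rows) in NIL-MP3, in Takanari and as the mean of both. The mean slopes lie between -0.71 for MCM6 and -0.40 for PCNA, and the 2 cultivars' intervals overlap for each gene.

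The slopes had the same sign in both cultivars for 9 of 9 genes. In NIL-MP3 they ran from -0.68 to -0.36 and 5 of 9 genes passed (MCM2, MCM4, MCM5, PCNA and LOC_Os06g14620), against 2.66% of loci that fell there. In Takanari they ran from -0.75 to -0.34 and 6 of 9 passed (MCM2, MCM3, MCM5, MCM6, PCNA and LOC_Os06g14620), against 5.89% of loci. The difference between the slopes, NIL-MP3 minus Takanari, passed for 0 of 9 genes and 0% of loci. At an unadjusted p under 0.05 it did so for 0 genes and 4.26% of loci, and DESeq2 and limma voom gave 0 genes. The largest differences were 0.18 for MCM5 (95% interval -0.29 to 0.66) and -0.18 for MCM7 (-0.66 to 0.31), so a difference of the size of the pooled slopes of some genes lies within these intervals.

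Single libraries decided how many genes passed within a cultivar. The NIL-MP3 count was 0 without NIL-MP3 AM5 library 13 and 1 without NIL-MP3 AM1 library 5, AM2 library 4 or AM5 library 7. It was 2 without NIL-MP3 AM4 library 14 and 3 without NIL-MP3 AM1 library 11, NIL-MP3 SAM library 12 or Takanari AM1 library 17. The Takanari count was 3 without Takanari AM5 library 1, the library of lowest total, with 530 loci in all against 792 in the main fit. For the NIL-MP3 slope the main fit called 352 loci. Without NIL-MP3 AM5 library 13, AM1 library 5 or SAM library 12 it called 219, 180 and 348 loci. The count over both cultivars held at 8 or 9 genes when any 1 library was left out.

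Within each cultivar the numbering forms 3 sets (libraries 1 to 6, 7 to 12 and 13 to 18) that each hold every tissue once, except Takanari 13 to 18, which has no SAM library here. The fall was looked at within them. The sum of the 10 genes fell over AM1 to AM5 in 6 of 6 sets, with slopes of -0.68 to -0.42 on the log2 scale. For 8 of 9 tested genes the slope was negative in 6 of 6 sets. MCM7 was negative in 5 of 6, with 0.08 in Takanari numbers 13 to 18. These slopes rest on 5 libraries each and were not tested. They use the libraries of the fitted slopes again and are not independent of them. The share of all loci that fell in every set is not given here.

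The next question was where the AM groups lie relative to SAM. The 5 comparisons share the 5 SAM libraries. AM1, AM2 and AM3 differed from SAM for 0 of 9 genes each, against 0.144%, 0.072% and 0.317% of loci. At an unadjusted p under 0.05 the counts were 0, 0 and 2 genes, against 6.93%, 6.45% and 10.9% of loci. DESeq2 and limma voom gave 0 in all 3 comparisons, and edgeR with a block for the sets of library numbers gave 1 for AM3 minus SAM. The intervals remain wide, and for MCM4 the difference AM1 minus SAM was 0.97 with a 95% interval of -0.04 to 1.99. AM4 was lower than SAM for 2 of 9 genes, against 1.97% of loci, and AM5 was lower for 5 of 9, against 4.68% of loci.

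MCM2 was the gene with the largest deficit in AM4. Its lowest, median and highest values were 0, 10.2 and 59.2 CPM in AM4, and in SAM its 5 libraries had 76.1, 63.3 and 75.8 CPM in NIL-MP3 libraries and 118 and 94.2 CPM in Takanari libraries. The AM4 libraries all lay below the SAM libraries, narrowly (59.2 against 63.3 CPM), and the share of all loci that did so is not given here. The difference was -2.49 ± 0.63 on the log2 scale (SE, adjusted p = 0.00265). MCM5, the other gene that passed, had -1.75 ± 0.53 (adjusted p = 0.029), and LOC_Os06g07210, which did not pass, had -1.85 ± 0.65 (adjusted p = 0.061). The count of 2 genes (244 loci in all) was 4 with no filter (266 loci), 1 by DESeq2 (234 loci) and 0 in thinned counts (146 loci). It was 5 (603 loci) with a block for the sets of library numbers within each cultivar. With the set as a random effect it was 4 (473 loci). The labels do not say what a set shares. It became 1 without 1 of 6 libraries, which were NIL-MP3 SAM library 12, NIL-MP3 AM4 library 14, NIL-MP3 AM4 library 8, Takanari SAM library 12, Takanari SAM library 6 and Takanari AM4 library 2.

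In AM5 the genes below SAM were PCNA (-1.27 ± 0.37, adjusted p = 0.0174), MCM2 (-1.61 ± 0.54, adjusted p = 0.0285), MCM5 (-1.59 ± 0.57, adjusted p = 0.042), MCM6 (-2.09 ± 0.84, adjusted p = 0.0453) and LOC_Os06g14620 (-1.30 ± 0.46, SE, adjusted p = 0.0484). PCNA reached at most 198 CPM in AM5. Its SAM libraries had 274, 218 and 202 CPM in NIL-MP3 libraries and 226 and 377 CPM in Takanari libraries. These groups narrowly did not overlap, which held for 1 of 9 genes, and the share of all loci is not given here. The count of 5 was not firm. It was 0 without Takanari SAM library 12, which left that group with 1 library assumed to vary like the others, and 1 without NIL-MP3 AM5 library 13. It was 2 without NIL-MP3 AM5 library 7, Takanari AM5 library 1 or Takanari SAM library 6, and 3 without NIL-MP3 SAM library 12, NIL-MP3 SAM library 6 or Takanari AM5 library 13. The difference was negative for 9 of 9 genes and stayed so for each gene under every alternative run.

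**Figure D4:**
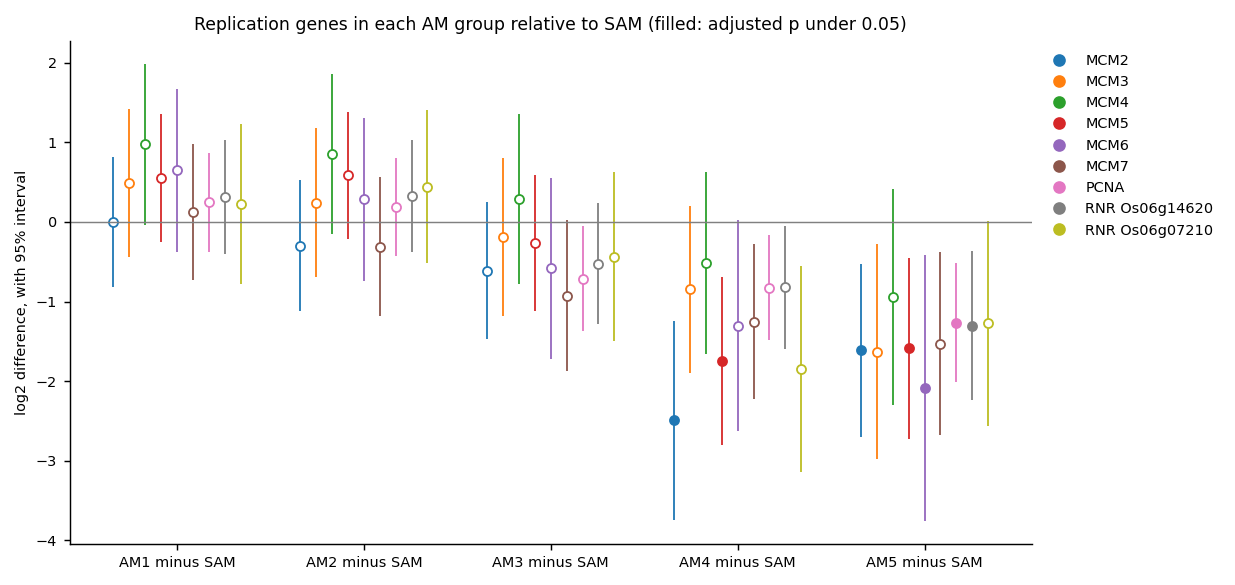
Log2 difference of each AM group minus SAM (y axis, with 95% interval) for the 9 tested genes, grouped by comparison (x axis). Filled points have an adjusted p under 0.05, which holds for 2 genes in AM4 and 5 in AM5, and the median over genes is 0.31 for AM1 and -1.53 for AM5.

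The make-up of the list varied between libraries. The 6 helicase genes held 35.05% ± 18.8 of the counts of the 10 genes in AM5 (range 9.09% to 64.3%, n = 6) and 46.2% ± 4.36 in AM1 (range 41.1% to 52.9%, SD, n = 6). AM4 spread from 16.3% to 48.1% and SAM from 36.8% to 46.7%. The shares of AM5 rest on 14 to 54 counts per library, and the ranges overlap.

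The comparison of the 2 cultivars asked whether the replication genes differ in level. Over all 6 tissues their sum was 626 ± 327 CPM in NIL-MP3 (SD, n = 18) and 878 ± 426 CPM in Takanari (n = 17), spreads that contain the fall over the AM series. The fitted difference NIL-MP3 minus Takanari was below 0 for 9 of 9 genes, with a median of -0.51 on the log2 scale, against 0.0089 over all loci. In edgeR's test 0 of 9 passed, against 1.3% of loci in either direction, and 4 of 9 had an unadjusted p under 0.05, against 13.8% of loci, while DESeq2 gave 0 and limma voom 1. The 4 were MCM6 (-1.13 ± 0.39, adjusted p = 0.114), MCM2 (-0.94 ± 0.31, adjusted p = 0.0882), MCM3 (-0.82 ± 0.32, adjusted p = 0.199) and LOC_Os06g14620 (-0.70 ± 0.23, SE, adjusted p = 0.112). LOC_Os06g07210 had -0.07 ± 0.34 (adjusted p = 0.962). The fit takes each library as independent, yet libraries of the same set of numbers within a cultivar deviated together (median r = 0.14 over tested loci). The errors and p-values of this comparison may therefore be too small.

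Within single tissues 0 of 9 genes and 0% of loci passed between the cultivars in each of the 6, and the same held for the joint interaction of cultivar and tissue. At an unadjusted p under 0.05 there were 2 genes in AM1, 1 each in AM2, AM3, AM4 and AM5, 0 in SAM and 0 for the interaction. Over all loci the share was 5.82% in AM1 and between 3.6% and 5.23% in the other 5 tissues, and 1.8% for the interaction. DESeq2 and limma voom gave 0 of 9 in these 7 tests as well. The sum was lower in NIL-MP3 in every tissue. It was 908 ± 228 CPM in NIL-MP3 libraries and 1399 ± 178 CPM in Takanari libraries in AM1, and 289 ± 137 CPM in NIL-MP3 libraries and 417 ± 181 CPM in Takanari libraries in AM5 (SD, n = 3 each). MCM6 in AM1 had 23.2 to 57.7 CPM in NIL-MP3 libraries and 108 to 141 CPM in Takanari libraries, with no overlap and an adjusted p of 0.819. LOC_Os06g14620 in AM5 had 0 to 46.7 CPM in NIL-MP3 libraries and 47.2 to 288.3 CPM in Takanari libraries, without overlap (edgeR's adjusted p = 0.885). MCM6 in AM4 had 0 to 13.2 CPM in NIL-MP3 libraries and 19.7 to 44.5 CPM in Takanari libraries, also without overlap (adjusted p = 0.998). These are examples, and other pairs separated too, such as MCM5 in AM1. MCM5 in SAM separated the other way, with 60.9 to 112 CPM in NIL-MP3 libraries and 53.8 CPM in both Takanari libraries. The share of all loci that separate between the cultivars is not given here, so these cases describe single genes only.

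**Figure D5:**
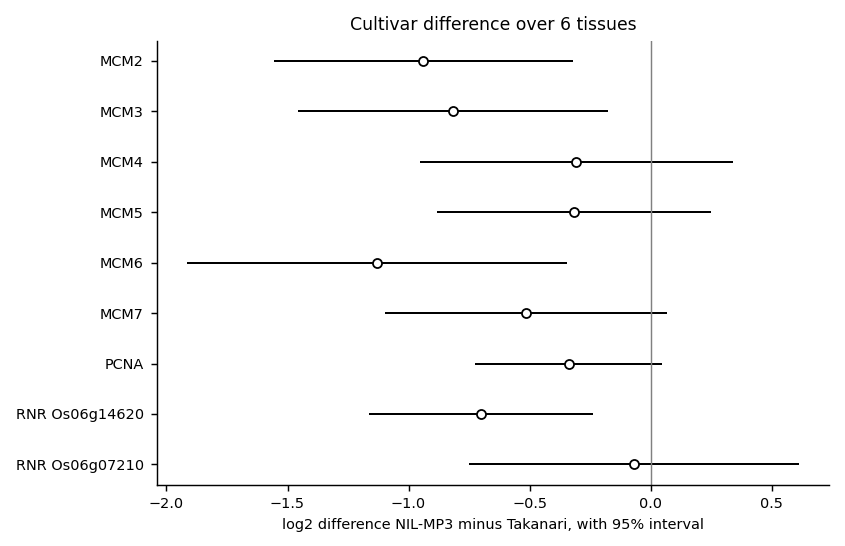
Log2 difference NIL-MP3 minus Takanari, averaged over the 6 tissues (x axis, with 95% interval), for the 9 tested genes (rows). The points lie between -1.13 for MCM6 and -0.07 for LOC_Os06g07210, and open points show that none has an adjusted p under 0.05.

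The sets of library numbers moved with the summed level of these genes inside NIL-MP3. Relative to the mean of their own group, the summed level was higher in 6 of 6 libraries numbered 1 to 6 (mean 0.52 on the log2 scale) and lower in 6 of 6 numbered 13 to 18 (mean -0.42), with -0.10 in numbers 7 to 12. Gene by gene, 7 of 9 lay above their group means in NIL-MP3 numbers 1 to 6, and 9 of 9 lay below in numbers 13 to 18. The exceptions in numbers 1 to 6 were LOC_Os06g14620 (-0.005) and LOC_Os06g07210 (-0.07). Both were highest in numbers 7 to 12 (0.28 and 0.21). In Takanari the means of the summed level in the 3 sets were -0.13, 0.03 and 0.12. Mean total counts of the NIL-MP3 sets were 135921, 145439 and 162332 in the order of their numbers. No set holds both cultivars, so the comparison of lines rests on 3 sets per cultivar. Anything that all sets of a cultivar share cannot be told apart from the cultivar. In limma voom with the set as a random effect, none of the 9 genes passed between the cultivars. Without NIL-MP3 numbers 1 to 6 the cultivar difference passed for 4 of 9 genes (MCM2, MCM3, MCM6 and PCNA), with 422 loci in all, and without Takanari numbers 13 to 18 it did so for 1. It also passed for 2 genes without NIL-MP3 AM2 library 4 (114 loci in all). For 1 gene it passed without NIL-MP3 AM5 library 1 (108 loci) or Takanari AM5 library 13 (83 loci). The main fit called 90 loci, and the fit without Takanari numbers 13 to 18 called 44.

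The tested genes were also compared with each other across libraries. Over the 35 libraries the 36 pairs had Pearson correlations of log2 CPM between 0.33 and 0.77 (median 0.60), values that share the fall over the AM series and the depth of each library. After the group means were taken out, the median was 0.28 (range -0.16 to 0.65), which at these counts is a weak relation. Over the 12 group means each gene correlated with the mean of the other 8 at 0.84 (LOC_Os06g07210) to 0.94 (MCM3).

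Outside the list, the loci most like the mean of the 9 genes over the 12 group means were LOC_Os01g64640 (r = 0.98) and LOC_Os06g06480 (r = 0.98). LOC_Os01g64640 had 315 ± 120 CPM in AM5 and 1297 ± 350 CPM in AM1 (SD, n = 6 each), with 950 ± 160 CPM in SAM (n = 5). Its order of AM5, SAM and AM1 from low to high is that of the replication genes. LOC_Os06g06480 had 54.8 ± 18.2 CPM in AM5 and 398 ± 173 CPM in AM1. The most opposite were LOC_Os06g41010 (r = -0.97) and LOC_Os07g34589 (r = -0.97), the second with 1734 ± 399 CPM in AM5 and 773 ± 566 CPM in AM1. These 4 were picked for their likeness among 6943 loci, so the correlations describe the choice.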

How the data were processed

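The authors' deposited values were whole-number counts of molecular identifiers per locus, not normalized, from CEL-Seq2 libraries made from 100 pg of RNA with 11 to 15 PCR cycles, per the labels' protocols. CEL-Seq2 reads lie near the 3' end of transcripts. The tools named were Bowtie2 and Subread 2.1, per the submitters' processing notes. Their roles, the genome build and the annotation were not given in the sources used here. How counting treated overlapping or near-identical loci and strand is not given either.

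The rule for the 10 genes uses identifiers and no measured value, but the list and all comparisons were chosen with earlier results of these data known. Named were these 10, and the 2 loci most like and the 2 most unlike their mean. The 12 combinations of cultivar and tissue were the groups of edgeR's filterByExpr (minimum count 10), which left 6943 loci. Counts were fitted with edgeR 4.0.16 in R 4.3.3 (TMM, robust quasi-likelihood F test, 1 mean per group, no covariate) with Benjamini-Hochberg adjustment over all tested loci, called at 0.05. CPM use library sizes over the tested loci. Correlations used log2 CPM with a prior count of 2. The fit was tested on simulated data: slopes of 0.5 per AM number were recovered for 96% of changed loci and slopes of 0.25 for 46.8% (6343 loci). For the cultivar comparison 83% were recovered at a log2 difference of 1 and 27.4% at 0.5 (6331 loci). Changed loci were drawn at random from all tested loci, and no shift shared by a set of library numbers was simulated. These rates need not hold for the replication genes. Alternatives used DESeq2 1.42.0, limma 3.58.1 and other filters, scalings, blocks and samples. Leaving out whole sets of library numbers was added after the data were seen. No sequence was available for these loci in the reference used here, so none is printed.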

Additional observations from a re-analysis of the deposited data

Results flagged for a closer look

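The 10 genes and their sum in each of the 6 tissues over both cultivars made 66 combinations. In 1 of them a library lay far from the others of its tissue. Chance alone gives this in about 1 in 20 combinations, so 1 in 66 is no more than chance gives. LOC_Os06g14620, a ribonucleotide reductase locus, had 288.3 CPM from 26 counts in Takanari AM5 library 7, whereas the other 5 AM5 libraries had 0 to 50.6 CPM. The other 9 genes of that library were not far from the rest of AM5. Without it the difference AM5 minus AM1 of this locus was -2.32 (edgeR's quasi-likelihood test, adjusted p = 4.58e-05), against -1.62 with it, and AM5 minus SAM was -2.02 (adjusted p = 0.000684), against -1.30 with it.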

How the results depend on the processing

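Of 1082 alternative values of 23 counts of genes, 1021 were within 1.5 times the count given above. Most of the 23 counts were 0, and a 0 that stayed 0 was taken as within this limit. The share therefore says little about the counts above 0, of which that of the NIL-MP3 slope, 5 in the main fit, ran from 2 to 8 under settings that left out no single library or set. The fall over AM1 to AM5 was the most stable: 462 of 464 alternative slopes of single genes passed and 464 of 464 were negative, between -0.83 and -0.33. Genes without an adjusted p under a setting are not among the 464, and without the AM5 libraries the slope ran over AM1 to AM4. Both exceptions were MCM7, without NIL-MP3 numbers 13 to 18 (-0.33, adjusted p = 0.0578) and without Takanari numbers 7 to 12 (-0.36, adjusted p = 0.0577). With the stricter filter (minimum count 20) 2 genes were tested, and 2 passed for both cultivars together, for NIL-MP3, for Takanari, for AM5 minus AM1, for AM5 minus SAM and between the tissues, and 0 for AM4 minus SAM. In thinned counts 5 passed over both cultivars, 2 in NIL-MP3, 4 for AM5 minus AM1, 1 for AM5 minus SAM, 0 for AM4 minus SAM and 3 between the tissues. With no filter 1 passed for AM3 minus AM2, 4 for AM4 minus SAM and 1 between the cultivars. DESeq2 gave 1 for AM4 minus SAM and 3 for AM5 minus SAM. Limma voom gave 2 for the NIL-MP3 slope and 1 between the cultivars. Without the AM5 libraries 2 passed for the NIL-MP3 slope, 3 for Takanari and 5 between the tissues, and without the 2 libraries of lowest total 3 for the Takanari slope, 3 for AM5 minus SAM and 1 between the cultivars. Without NIL-MP3 numbers 1 to 6 and Takanari numbers 13 to 18 the cultivar counts were 4 and 1. With raw total counts as library sizes the summed level was lower in every tissue, with 285.8 CPM in AM5 (main value 352.9 CPM), 981.4 CPM in AM1 (main value 1153 CPM) and 781.3 CPM in SAM (main value 896.2 CPM). The lower sums with raw totals follow from the divisor, which then also holds the counts of untested loci. The number of all loci called moved between settings as well. It ran from 146 to 603 for AM4 minus SAM (244 in the main fit) and from 444 to 956 for AM5 minus SAM (709). The cause of the other shifts was not tested, apart from the genes that a filter or thinning removed.

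Leaving out 1 library at a time gave 8 to 9 genes for the slope, 0 to 7 in NIL-MP3, 3 to 7 in Takanari, 5 to 8 for AM5 minus AM1, 1 to 3 for AM4 minus SAM, 0 to 6 for AM5 minus SAM, 6 to 9 between the tissues and 0 to 2 between the cultivars.

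The labels do not say what library numbers share. Deviations of same-set libraries within a cultivar correlated at a median of 0.14, over 0.1 in 57 of 85 pairs, and 35 of 35 libraries correlated best with their own set. Libraries of equal number in the other cultivar had a median of 0.0015. With a replicate block of 6 levels 8 genes passed for the NIL-MP3 slope, 5 for AM4 minus SAM, and 1 each for AM3 minus AM2, AM4 minus AM3 and AM3 minus SAM. With the set as a random effect 4 passed for AM4 minus SAM. The block of 3 levels, shared by both cultivars, left each count within 1.5 times.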
